A study of Mus musculus with 4 samples.

Results

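The genes described here are the 10 secreted antagonists of Wnt signalling that were listed by name for this purpose, among 31053 genes of a single-cell count matrix of the mouse tibia. They are Sost, Dkk1, Dkk2, Dkk3, Wif1, Sfrp1, Sfrp2, Sfrp4, Sfrp5 and Frzb, and the question was which cells of the growing bone make which of them. The cells came from the tibiae of a single male mouse at postnatal day 6, which carried Col10a1Cre and Rosa26-Tdtomato together with Irx3 +/Δ and Irx5 +/-, labelled as an Irx3/5 heterozygous control. All cells came from this genotype, Irx5 was +/- in all of them, and there was no other genotype to compare. Col10a1Cre acts in hypertrophic chondrocytes (HCs), so that HCs and the cells that descend from them carry the reporter. The study writes the Irx3 allele as ΔHC, its mark for an allele deleted by this Cre. The lowered Irx3 dose thus applies to HCs and their descendants, not to all cells. The 4 sequencing entries of this mouse were counted together as 1 library, so there is no replicate, and no test or p-value is given. Intervals are at 95% and cover counting error only.

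Wnt ligands bind Frizzled receptors together with the co-receptors Lrp5 and Lrp6, which stabilizes beta-catenin and, in bone, favours osteoblast formation. Sclerostin, the product of Sost, and Dkk1 and Dkk2 bind the co-receptors, whereas Wif1 and the secreted Frizzled-related proteins, which include Frzb, bind the Wnt ligands themselves. Dkk3 is related to these Dickkopf proteins by sequence, and its place in the pathway is less clear. In bone, sclerostin is known as a product of osteocytes, the cells embedded in the mineralized matrix.

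Promoter sequences are shown for Sost and Dkk1, which were highest in the same cells, for Wif1, with most of its UMIs in osteogenic cells, and for Sfrp5, with most in chondrocyte-like cells. Each runs 5′ to 3′ on the strand of its gene, from RefSeq on GRCm38.p6. It starts 250 bases before the RefSeq start site and ends at that site or, where the GENCODE M21 gene starts earlier, at the GENCODE start. Capitals mark a match, on either strand, to a TATA box (TATAAA), a TCF/LEF core (CTTTGA) or a RUNX core (TGTGGT). The windows lie at chr11:101967016-101967265 (minus strand, Sost), chr19:30549666-30549746 (minus strand, Dkk1), chr10:121033754-121033959 (plus strand, Wif1) and chr19:42202253-42202502 (minus strand, Sfrp5).
Sost: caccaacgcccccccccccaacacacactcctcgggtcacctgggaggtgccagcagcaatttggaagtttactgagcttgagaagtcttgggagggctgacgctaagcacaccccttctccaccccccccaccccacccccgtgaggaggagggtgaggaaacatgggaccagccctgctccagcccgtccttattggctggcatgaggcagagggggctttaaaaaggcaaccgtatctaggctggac
Dkk1: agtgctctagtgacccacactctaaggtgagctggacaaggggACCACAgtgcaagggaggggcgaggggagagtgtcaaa
Wif1: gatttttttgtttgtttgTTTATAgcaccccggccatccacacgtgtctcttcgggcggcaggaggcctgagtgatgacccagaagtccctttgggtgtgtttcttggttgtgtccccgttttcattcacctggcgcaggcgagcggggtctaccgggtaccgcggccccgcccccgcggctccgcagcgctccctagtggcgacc
Sfrp5: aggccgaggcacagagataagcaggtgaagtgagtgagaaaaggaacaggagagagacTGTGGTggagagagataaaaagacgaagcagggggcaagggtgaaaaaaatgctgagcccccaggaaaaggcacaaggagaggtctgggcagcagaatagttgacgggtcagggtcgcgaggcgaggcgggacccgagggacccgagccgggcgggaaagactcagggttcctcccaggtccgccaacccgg
Of the 10 genes, 7 had an entry in the RefSeq promoter table, and Dkk3, Sfrp1 and Sfrp4 had none. In the whole table entry, which runs from 250 bases before to 50 after the start, the TATA box letters were found in 3 of the 7, the TCF/LEF core in 2 and the RUNX core in 2. The shares among all 32851 promoters of the table were 13.6%, 16.0% and 16.8%. The Dkk1 entry held a match to each motif, and the Sost entry held none of these letters. The TATA box letters marked in Wif1 lie on the strand opposite to the gene, at −232 from the start.

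After filtering, 8255 cells with a median of 13957 UMIs were kept. Each UMI (unique molecular identifier) stands for 1 captured transcript. The cells formed 44 clusters, of which 36 could be named by markers fixed for each cell type and 7, with 424 cells, were mixed. The members were left out of the genes used for clustering. The names carry "-like" because they were rebuilt here, and they fall into 16 classes, 12 of them skeletal. Levels are given as UMIs of a gene per 1000000 UMIs of the class or cluster (CPM), with an exact Poisson interval. As the counts are of transcript ends and were not scaled to length, a gene is compared between classes, and the genes are set side by side by the share of each one's own UMIs.

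The 10 antagonists together held 24499 UMIs in the cells kept, of which 20363 (83.1%, interval 82.6 to 83.6) lay in the skeletal classes, which held 44.4% of all UMIs. A further 11.9% lay in the mixed clusters, in which 234 of 424 cells were called as doublets. The 3727 cells of the leukocyte-like (median depth 11686 UMIs) and red blood cell-like (13779 UMIs) classes served as background, since free RNA gives UMIs in cells that do not make a gene. Their levels ranged from 0 (Sost) to 2.98 CPM (Wif1). All 10 members reached at least 10 CPM in their highest class and at least 4-fold over all other cells kept, a pattern found in 24.2% of the 13748 genes with at least 100 UMIs. Sost, with 82 UMIs, was below that minimum and is not among those genes.

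**Figure D1:**
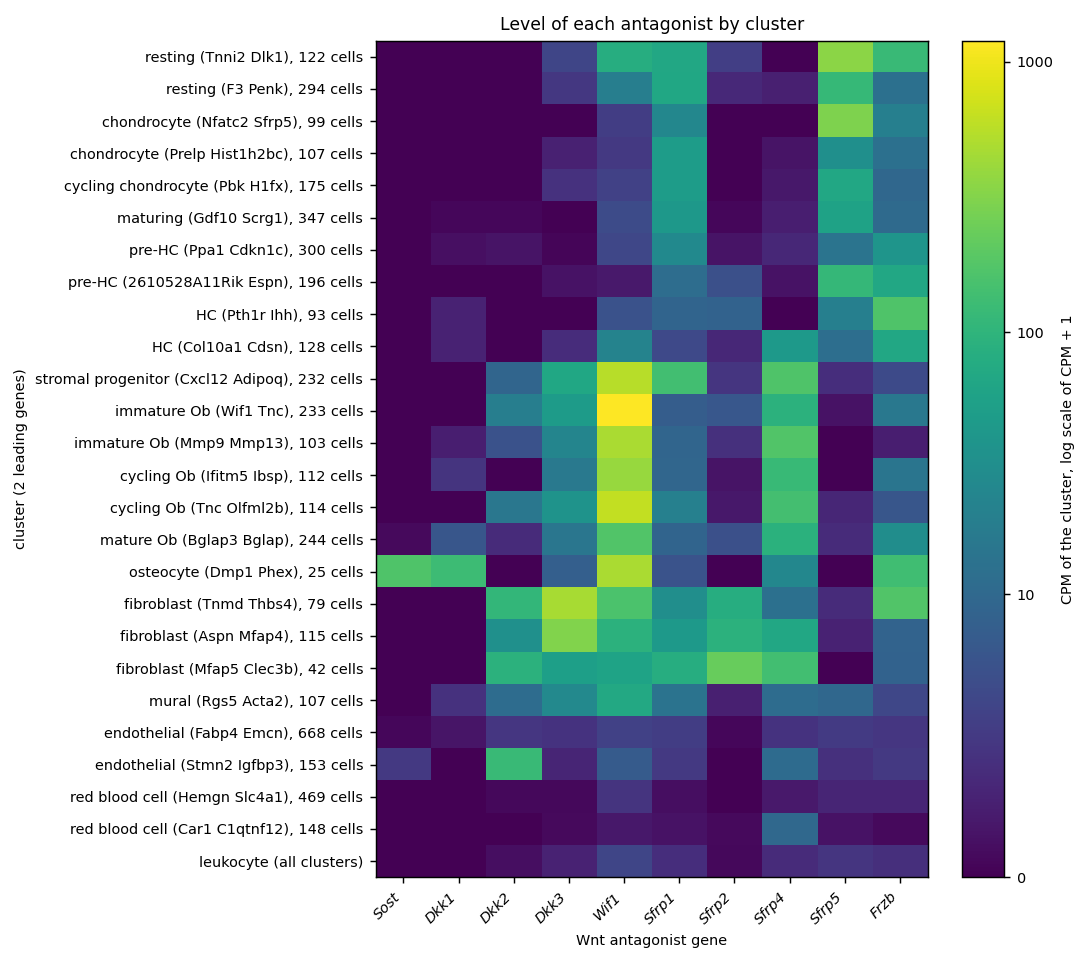
Level of each of the 10 antagonists (columns) in each skeletal, vascular and red blood cell-like cluster and in all leukocyte-like cells (rows), as CPM on a log colour scale of CPM + 1. The bright cells fall in different rows for different genes, with Sost and Dkk1 in the osteocyte-like cluster, Wif1 in the osteoblast-like clusters and Sfrp5 in the chondrocyte-like ones.

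The classes that held most of each gene's transcripts differed. In the 1861 chondrocyte-like cells were 86.1% of the UMIs of Sfrp5, 70.3% of those of Frzb and 59.5% of those of Sfrp1. By contrast, the 1063 osteogenic cells, from marrow stromal progenitor-like cells to osteocyte-like cells, held 81.7% of the UMIs of Sost, 77.5% of Wif1, 70.6% of Dkk1 and 67.2% of Sfrp4. Fibroblast-like cells, 236 in number, held 62.9% of the UMIs of Sfrp2 and 45.5% of those of Dkk3. Dkk2 was the member with the lowest skeletal share, 46.4%, as 39.6% of its UMIs were in endothelial-like cells.

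**Figure D2:**
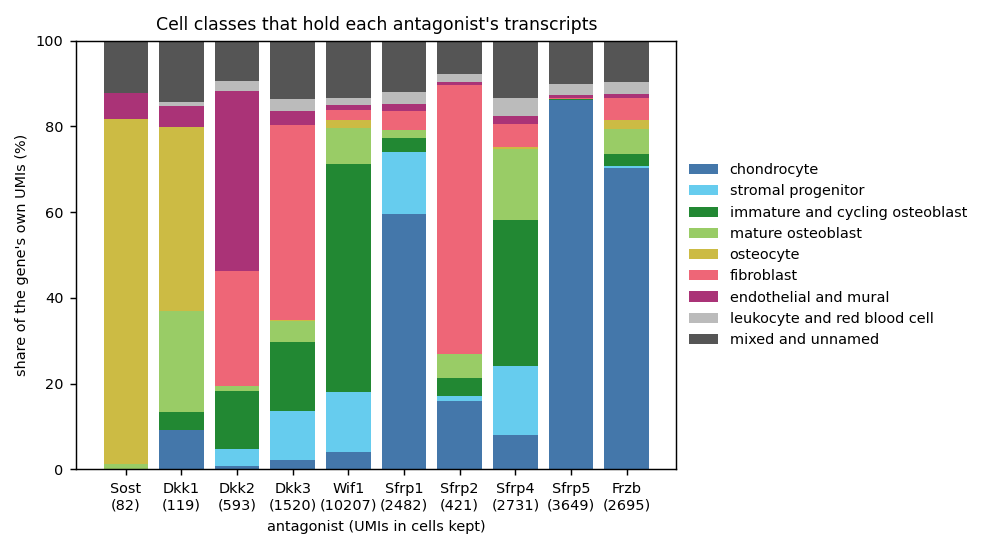
Share of each antagonist's own UMIs (y axis, %) held by groups of cell classes, with the gene's UMIs in the cells kept below its name. Chondrocyte-like cells hold 86.1% of Sfrp5, osteogenic cells 77.5% of Wif1 and fibroblast-like cells 62.9% of Sfrp2.

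Of the antagonists that bind the co-receptors, Sost (ENSMUSG00000001494, chr11:101962458-101967015, minus strand) had the narrowest distribution. It was seen in 13 of 8255 cells, and 66 of its 82 UMIs (80.5%) lay in 7 of the 25 osteocyte-like cells. These 7 cells held 17, 11, 10, 10, 9, 7 and 2 Sost UMIs, and the other 18 held none. The level in the osteocyte-like class was 167 CPM (129 to 212), against 0.203 CPM (0.00514 to 1.13) in mature osteoblast-like cells, where 1 UMI was counted. No Sost UMI was found in the chondrocyte-like cells, which allows at most 0.0692 CPM there by the limit of 3 counts. Of the remaining UMIs, 10 were in mixed clusters and 5 in endothelial-like cells.

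Dkk1 (ENSMUSG00000024868, chr19:30545863-30549665, minus strand), which also acts on Lrp5 and Lrp6, was highest in the same class but reached more of its cells. It held 119 UMIs in 69 cells, 51 of them in 17 of the 25 osteocyte-like cells, where its level was 129 CPM (95.9 to 169). Mature osteoblast-like cells came next with 5.69 CPM (3.78 to 8.22), a ratio of 22.7 (14 to 37.3). The 7 cells with Sost held, in the order given above, 2, 2, 5, 1, 12, 0 and 1 Dkk1 UMIs, so that 6 of the 7 had both. All 25 osteocyte-like cells had Wif1, and 15 had Frzb. Both genes were thus found together in this small class, while 11 cells with Dkk1 had no Sost UMI at a median depth of 15070 UMIs for the class.

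The markers of the osteocyte-like cluster and its stability were as follows. It held 3605 CPM of Dmp1, a matrix protein of osteocytes, against 236 CPM in mature osteoblast-like cells, and 2241 CPM of Phex against 136. Both genes are on the list of 7 markers that named the cluster, so their levels are no independent check. Mepe, of the same list, was at 2.53 CPM against 3.45 CPM, and 5 of the 7 markers reached 10 CPM in the cluster. No cell of it was called a doublet, its mitochondrial share had a median of 5.62%, and 7 of 25 cells were at or under 5%. In 6 of 10 reclusterings no osteocyte-like cluster separated. Among these was the limit of at most 5% mitochondrial UMIs, which leaves out all but those 7 cells. Sost was then highest in endothelial-like cells (0.920 CPM). As a second view, chosen after seeing the data, osteogenic cells were grouped after thinning to equal depth by how many of 7 osteocyte markers had a UMI. Sost was at 107 CPM (83.1 to 137) in the 32 cells with at least 4 markers, of which 21 were in the osteocyte-like cluster. Its 66 UMIs there lay in 7 cells, which are the Sost cells of the cluster, so the cells from outside it added none. This view also uses the marker list that named the cluster, and is therefore not independent of it. In the cells with 0, 1, 2 and 3 markers its level was 0, 0.183, 0 and 0 CPM. The markers used did not include Sost, Dkk1 or any other antagonist.

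Across these marker groups Dkk1 was at 0.812, 3.12, 2.60, 14.6 and 73.2 CPM with 0, 1, 2, 3 and at least 4 markers, and its interval with at least 4 (53.4 to 98) lay above that with 3 (7.30 to 26.2). Frzb was at 10.7, 15.8, 26.4, 42.5 and 89.5 CPM in the same groups. Wif1, by contrast, was at 487, 611, 431, 361 and 415 CPM. Sost was near 0 up to 3 markers, Dkk1 and Frzb were highest with at least 4, and Wif1 showed no such order.

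Dkk2 (ENSMUSG00000028031, chr3:132085292-132180304, plus strand) lay mainly outside the osteoblast lineage. A cluster of 153 endothelial-like cells led by Stmn2, Igfbp3, Eln and Gja4, the last a gap junction gene of arteries, held 36.8% of its UMIs at 120.0 CPM (105 to 137). The other endothelial-like cluster, led by Fabp4 and Emcn, was at 2.10 CPM (1.22 to 3.36) in 668 cells. Within the fibroblast-like class the cluster with Tnmd, a gene of tendon cells, was at 109.6 CPM (86.6 to 137), and the ratio of the first to this cluster was 1.09 (0.842 to 1.44). These levels did not differ beyond counting error. In the 15 endothelial-like cells with most Dkk2 were 55.5% of the UMIs of that cluster, and 91 of its 153 cells had none. After thinning to 5000 UMIs, 28.1% of its cells had a Dkk2 UMI, against 0.0858% of background cells. Osteocyte-like cells had 0 Dkk2 UMIs, which allows up to 7.58 CPM.

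Dkk3 (ENSMUSG00000030772, chr7:112116017-112159057, minus strand) was a gene of the fibroblast-like cells. The cluster with Tnmd was at 474 CPM (424 to 527), and that led by Aspn, a matrix gene of periosteal and ligament cells, at 315 CPM (282 to 351). At the same thinned depth, 85.7% and 64.0% of the cells of these clusters had a Dkk3 UMI, against 0.372% of the background cells. The third fibroblast-like cluster, led by Mfap5, Clec3b and Pi16 among others, was at 53.8 CPM, within the range of the stromal progenitor-like (66.6 CPM) and Wif1-rich osteoblast-like cells (48.3 CPM). Towards mature osteoblast-like cells Dkk3 was lower, at 15.2 CPM (12.0 to 19.1).

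Of the antagonists that bind Wnt ligands, Wif1 (ENSMUSG00000020218, chr10:121033960-121100650, plus strand) was the most counted member, with 10207 UMIs. It was highest in the 233 immature osteoblast-like cells led by Wif1 itself, Tnc, Vcan and Postn, at 1196 CPM (1153 to 1241), where 218 cells had it with a median of 9 UMIs per cell. The second immature osteoblast-like cluster, led by the matrix proteases Mmp9 and Mmp13, was at 488 CPM (449.9 to 529). Marrow stromal progenitor-like cells, which express Cxcl12 and Adipoq, were at 561 CPM (532 to 591). The clusters called cycling osteoblast-like by their share of cells with Top2a were unlike each other, the one led by Tnc at 628 CPM and the one led by the mature osteoblast genes Ifitm5 and Ibsp at 401 CPM. Osteocyte-like cells were at 480.0 CPM (414 to 553) and mature osteoblast-like cells at 175 CPM (163 to 187), the lowest of these. Wif1 was thus present in all osteogenic clusters, and the level of osteocyte-like cells was above that of mature osteoblast-like cells (ratio 2.75, 2.34 to 3.22). After thinning, 85.0% of the cells of the first cluster had a Wif1 UMI, against 1.09% of background cells.

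Sfrp4 (ENSMUSG00000021319, chr13:19623104-19632994, plus strand), a Frizzled-related protein known to act in cortical bone formation, was also spread over the osteogenic clusters, with its UMIs in fewer cells. Its order over them was unlike that of Wif1, as the cluster richest in Wif1 was at 92.8 CPM of Sfrp4. Stromal progenitor-like cells were at 171 CPM (155 to 188) and the Mmp9 Mmp13 cluster at 173 CPM (151 to 198), a ratio of 1.01 (0.856 to 1.20) between the latter and the former. Mature osteoblast-like cells were at 92.2 CPM (83.9 to 101) and osteocyte-like cells at 25.3 CPM (12.1 to 46.5). The 23 stromal progenitor-like cells with most Sfrp4 held 61.0% of its UMIs there, and 122 of 232 cells had none. For Wif1 the corresponding share was 43.2%, with 52 cells at 0. Both measures depend on the count, which was 439 UMIs for Sfrp4 and 1439 for Wif1 in these cells. The part of the count in this contrast was not tested. A red blood cell-like cluster led by Car1 held 10.1 CPM of Sfrp4, above the 2.12 CPM of the background as a whole, and 13.5% of its cells were called doublets. The part of doublets in this value was not tested.

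**Figure D3:**
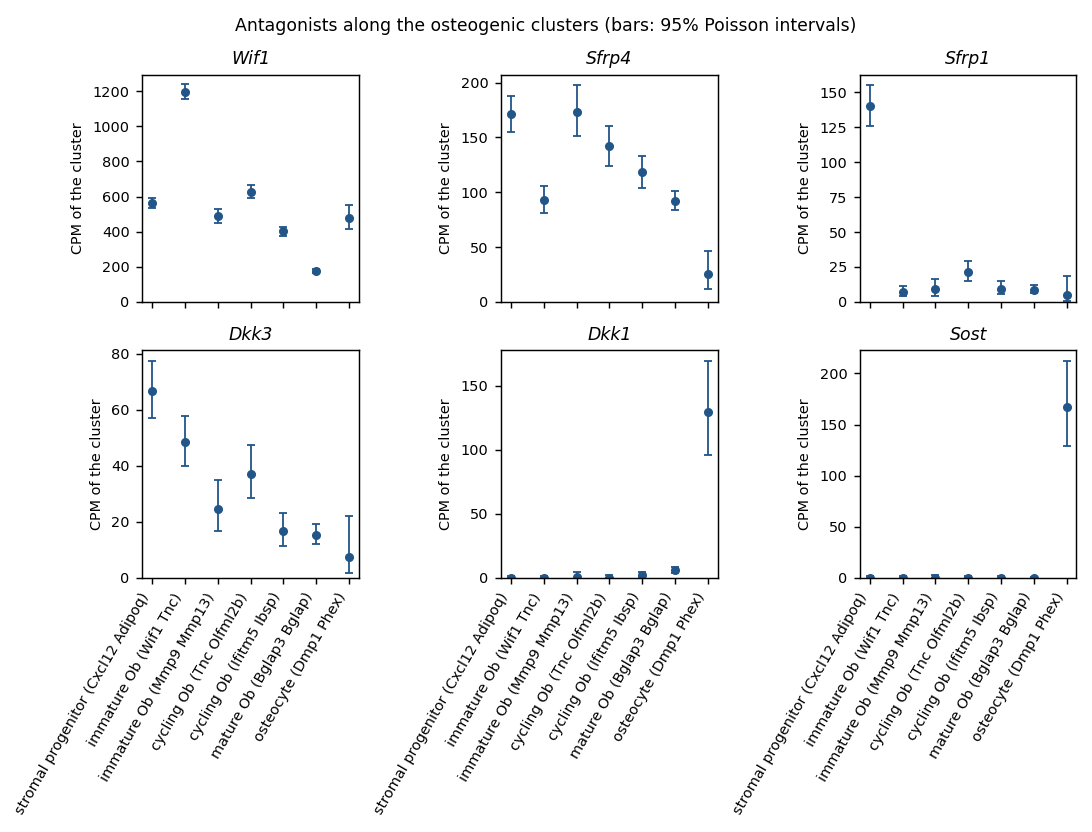
Levels of Wif1, Sfrp4, Sfrp1, Dkk3, Dkk1 and Sost (y axes, CPM) in the 7 osteogenic clusters, from stromal progenitor-like to osteocyte-like, with 95% Poisson intervals as bars. Wif1 peaks in the Wif1 Tnc cluster at 1196 CPM, Sfrp1 in stromal progenitor-like cells at 139.9 CPM, and Dkk1 and Sost in osteocyte-like cells at 129 and 167 CPM.

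Sfrp1 (ENSMUSG00000031548, chr8:23411502-23449632, plus strand) was found in marrow stroma, cartilage and fibroblast-like cells. It was at 139.9 CPM (126 to 155) in stromal progenitor-like cells and between 7.72 and 14.7 CPM in immature, cycling and mature osteoblast-like cells. In cartilage it was at 67.2 CPM (60.9 to 74.1) in resting chondrocyte-like cells, 42.5 CPM (37.9 to 47.4) in maturing, 22.1 CPM (19.6 to 24.7) in pre-hypertrophic and 5.96 CPM (4.31 to 8.03) in hypertrophic chondrocyte-like cells. The intervals of these 4 classes did not overlap. The pre-hypertrophic class joins unlike clusters, though. Without thinning, 153 of 300 cells with Panx3 and Wnt4 among their leading genes had Sfrp1, against 42 of 196 in the cluster with Fgfr3. In the cluster led by Pth1r and Ihh, of the hypertrophic class, 19 of 93 cells had it. The UMIs of Sfrp1 were concentrated in stroma, where 146 of 232 cells had none. They were more even in the larger resting chondrocyte-like cluster (294 cells), where 164 cells had at least 1. The fibroblast-like class was at 48.2 CPM of Sfrp1. Its cluster with Mfap5, Clec3b and Pi16 was at 80.7 CPM, with 32 of 42 cells at 0.

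Sfrp5 (ENSMUSG00000018822, chr19:42197971-42202252, minus strand) was a cartilage gene, with 0.384% of its UMIs in osteogenic cells. The cluster of 122 resting chondrocyte-like cells led by Tnni2, Dlk1, Ucma and Prg4, the last the gene of the joint lubricant lubricin, was at 348 CPM (318 to 379). A cluster of 99 chondrocyte-like cells led by Nfatc2 was at 306 CPM (279 to 335), and the larger resting chondrocyte-like cluster at 115 CPM (105 to 125). The 2 pre-hypertrophic clusters differed, at 112 CPM (103 to 122) in the one with Fgfr3 among its leading genes and 14.5 CPM (12.1 to 17.2) in the one with Panx3 and Wnt4. Hypertrophic clusters were at 20.2 CPM (15.5 to 26.0) and 12.1 CPM (9.05 to 16.0). Along this order Sfrp5 was therefore not evenly lower, since 1 pre-hypertrophic cluster was near the larger resting one.

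Frzb (ENSMUSG00000027004, chr2:80411970-80447625, minus strand), first known from cartilage, had high levels in 3 lineages. They were the fibroblast-like cluster with Tnmd at 176 CPM (146 to 209), a cluster led by Pth1r and Ihh at 168 CPM (154 to 183) and osteocyte-like cells at 134 CPM (100.3 to 175). The resting chondrocyte-like cluster with Prg4 was at 122 CPM (105 to 141), with 84 of 122 cells at 0 and 74.0% of its Frzb UMIs in 12 cells. The cluster led by Pth1r and Ihh was placed in the hypertrophic class, but Ihh and Pth1r are also pre-hypertrophic markers, and its Col10a1 level was 2759 CPM against 9903 CPM in the other cluster of that class. This other cluster, led by Col10a1, was at 68.8 CPM (61.1 to 77.3), and the maturing and pre-hypertrophic classes at 10.7 CPM (8.50 to 13.3) and 49.1 CPM (45.5 to 53.0). Osteocyte-like cells had the highest class level, but their ratio to the hypertrophic class, which joins these unlike clusters, was 1.21 (0.901 to 1.60), so the order of these classes was not resolved. By class, Frzb was thus higher and Sfrp1 lower from maturing to pre-hypertrophic to hypertrophic chondrocyte-like cells. For Frzb the last step depends in part on placing the cluster led by Pth1r and Ihh in the hypertrophic class. The cluster led by Col10a1 did not differ beyond counting error from the pre-hypertrophic cluster with Fgfr3, at 68.6 CPM. It was above the pre-hypertrophic cluster with Panx3 and Wnt4, at 38.8 CPM.

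**Figure D4:**
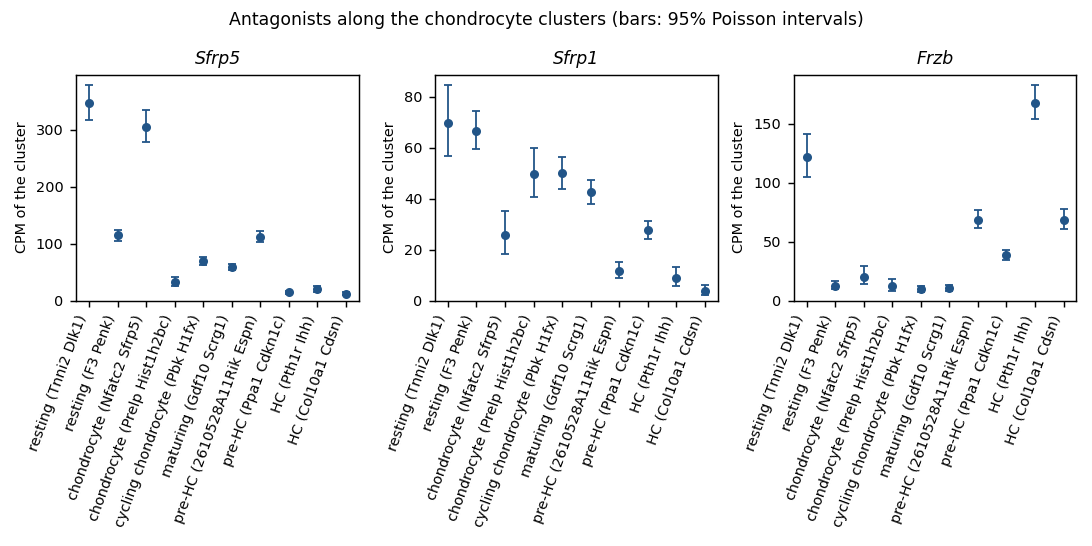
Levels of Sfrp5, Sfrp1 and Frzb (y axes, CPM) in the 10 chondrocyte-like clusters, ordered from resting to hypertrophic, with 95% Poisson intervals as bars. Sfrp5 is highest on the left (348 CPM), Sfrp1 is lowest in the hypertrophic clusters and Frzb reaches 168 CPM in the cluster led by Pth1r and Ihh.

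Sfrp2 (ENSMUSG00000027996, chr3:83766321-83774316, plus strand) was the most confined Frizzled-related gene. It was at 118 CPM (104 to 133) in the fibroblast-like class and 4.67 CPM (2.96 to 7.01) in the next, mature osteoblast-like cells, a ratio of 25.3 (16.5 to 40.7). In the cluster with Mfap5, Clec3b and Pi16 it was at 228 CPM (187 to 274), from 12 of 42 cells, and 4 cells held 61.8% of its UMIs. The clusters led by Aspn and by Tnmd were at 92.8 and 81.5 CPM. Of the 23 UMIs in mature osteoblast-like cells, 19 came from 1 cell.

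Cells that held several antagonists were counted after thinning to 5000 UMIs. The mean number of different members per cell was 2.0 in osteocyte-like cells, 1.80 in fibroblast-like, 1.68 in stromal progenitor-like and 1.40 in immature osteoblast-like cells, against 0.0368 in leukocyte-like cells. In the cluster with Tnmd it was 2.27, and 81.8% of its cells had at least 2 members. Chondrocyte-like classes were between 0.429 and 0.870. Summed over the 10 genes, the level was 1387 CPM in the Wif1 Tnc cluster, of which Wif1 alone gave 1196 CPM, and 11.3 CPM in leukocyte-like cells.

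Cells were called HC-derived with more than 14 UMIs of WPRE, a sequence of the reporter, which gave 258 HC-derived cells and 805 others (non-HC-derived) among the osteogenic cells. Such a call was made in 5 of the 3727 background cells. Among 6 members with at least 100 UMIs in these cells, none was at least 2-fold higher in HC-derived cells, where 0.596% of 8893 genes were. Dkk2 and Dkk3 were at least 2-fold lower, as were 1.83% of those genes. The median log2 ratio was −0.43 over the 6 members and −0.03 over all genes tested. Median depth was 14970.5 UMIs in HC-derived and 11934 UMIs in non-HC-derived cells. As Col10a1Cre also acts on the Irx3 allele, HC-derived and other cells differ by design in Irx3 dose as well as in origin. The part of that dose in any comparison by WPRE was not tested.

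Dkk3 was at 15.0 CPM (11.6 to 19) in HC-derived osteogenic cells and 39.3 CPM (35.7 to 43.2) in the others, a ratio of 0.381 (0.290 to 0.493). Mature osteoblast-like cells had the lowest ratio of the classes (0.169, 0.0655 to 0.368), with 3.76 CPM (1.51 to 7.74) against 22.2 CPM (17.3 to 28.2). In stromal progenitor-like cells the interval of the ratio included 1 (0.746, 0.424 to 1.23). The immature and cycling classes each join clusters with different shares of HC-derived cells, so their values are given by cluster. In the Mmp9 Mmp13 cluster, which holds 60 of the 67 HC-derived immature cells, Dkk3 was at 31.4 CPM (20.1 to 46.7) against 13.1 CPM (4.81 to 28.5), a ratio of 2.40 (0.954 to 7.16). The ratio was 0.247 (0.0749 to 0.643) in the Ifitm5 Ibsp cluster and 0.659 (0.329 to 1.23) in the cycling cluster led by Tnc. Dkk2 was at 1.34 CPM (0.491 to 2.91) against 9.64 CPM (7.88 to 11.7), from 6 and 105 UMIs, and its 6 UMIs in HC-derived cells lay in 2 cells of the cycling cluster led by Tnc, where the ratio was 0.753 (0.249 to 1.93). When cells with at least 1 WPRE UMI were called HC-derived, 0 members passed 2-fold, and the log2 ratios were −0.95 for Dkk2 and −0.78 for Dkk3.

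Sfrp4 lay on the other side, at 158 CPM (147 to 170.3) in HC-derived and 103 CPM (97.4 to 109.6) in non-HC-derived cells, a ratio of 1.53 (1.39 to 1.68). Among stromal progenitor-like cells it was 359.8 against 143 CPM, in the Mmp9 Mmp13 cluster 209 against 114 CPM (ratio 1.84, 1.34 to 2.57) and in the cycling cluster led by Tnc 282 against 88.2 CPM (ratio 3.20, 2.48 to 4.15). The Ifitm5 Ibsp cluster, at 125 and 113 CPM (ratio 1.10, 0.847 to 1.42), and mature osteoblast-like cells, at 95.5 and 90.2 CPM, did not differ beyond counting error. Single cells carried part of this, since 1 HC-derived cell of the cycling cluster led by Tnc held 74 UMIs. Without the top cell of each group the first 3 pairs of values were 278 against 134, 151 against 77 and 135 against 79.5 CPM, and 142 against 101 CPM was found over all osteogenic cells. Sfrp1 was at 33.9 and 30.9 CPM over all classes, and among stromal progenitor-like cells at 311 CPM (254 to 378, 29 cells) against 115 CPM (101 to 129, 203 cells), or 242 against 105 CPM without the top cells.

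Wif1 was lower over all HC-derived osteogenic cells, at 373 CPM (355 to 391) against 573 CPM (559 to 587). Of the Wif1 Tnc cluster, where it was highest, 3.0% of the cells were HC-derived, against 58.3% of the Mmp9 Mmp13 cluster. Within the latter it was higher in HC-derived cells (536 against 408 CPM, ratio 1.31, 1.10 to 1.57), and within mature osteoblast-like cells the ratio was 1.12 (0.976 to 1.29). In the cycling cluster led by Tnc the ratio was 0.80 (0.693 to 0.921), so that the order differed between clusters. Sost had 2 UMIs in HC-derived osteogenic cells and 65 in the others. Within the osteocyte-like cluster, 1 of 6 HC-derived and 6 of 19 other cells had it, too few to compare.

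**Figure D5:**
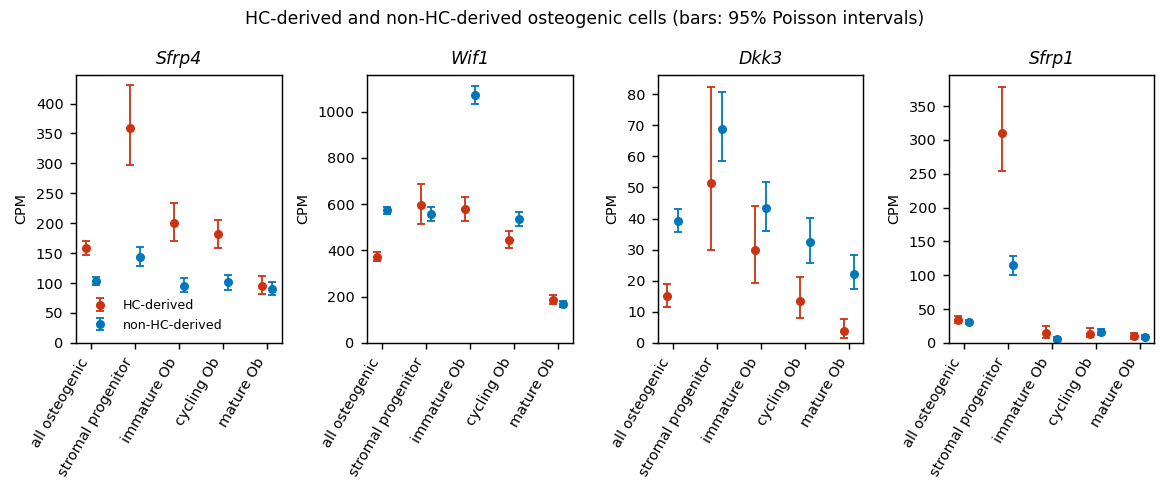
Levels of Sfrp4, Wif1, Dkk3 and Sfrp1 (y axes, CPM) in HC-derived cells and the others, over all osteogenic cells and in 4 classes, with 95% Poisson intervals as bars. The immature and cycling classes each join unlike clusters. Dkk3 is lower in HC-derived cells over all classes (15.0 against 39.3 CPM) and Sfrp4 higher (158 against 103 CPM). Wif1 is lower in HC-derived cells of the pooled immature and cycling classes. By cluster, which is not drawn, it is higher in HC-derived cells of the Mmp9 Mmp13 cluster (536 against 408 CPM). In the cycling cluster led by Tnc it is lower (ratio 0.80). In the stromal progenitor-like and mature classes Wif1 does not differ beyond counting error.

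In the hypertrophic cluster led by Col10a1, 93 of 128 cells passed the WPRE limit. Sfrp4 was at 56.5 CPM (48.7 to 65.2) in these and 4.60 CPM (1.25 to 11.8) in the other 35, while Sfrp5 was at 1.80 CPM (0.662 to 3.92) against 51.7 CPM (37.7 to 69.2). Frzb was at 66.1 and 79.3 CPM, a ratio of 0.834 (0.633 to 1.11). Median depths were 35628 and 25799 UMIs. In the cluster led by Pth1r and Ihh, Sfrp4 had 0 UMIs. The Col10a1 cluster also held 1216 CPM of the neutrophil gene S100a8, against 36.1 CPM in the cluster led by Pth1r and Ihh, and 5.47% of its cells were called doublets. The part of both in these values was not tested.

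The genes whose log2 level over the 36 named clusters was most like that of a member, among genes with at least 100 UMIs, differed between members. These correlations describe clusters of 1 library that differ in depth. For Dkk1 they were Sgca (r = 0.93), C430049E01Rik (0.87) and Hrc (0.87). Fap (0.96), Cdh11 (0.94) and Twist1 (0.93) were nearest to Wif1, and Cdh11 (0.91), Cdh2 (0.89) and Adamts2 (0.89) to Sfrp4. Postn (0.93) and Fbn2 (0.92) were nearest to Dkk3, and Pkia (0.91), Gpr161 (0.91) and Meox1 (0.90) to Dkk2. Thbs4 (0.89), Angptl1 (0.88) and AW551984 (0.88) were nearest to Sfrp2, Islr (0.92), Sspn (0.91) and Srpx (0.90) to Sfrp1, Pou3f3 (0.93), Gng13 (0.93) and Extl1 (0.92) to Sfrp5, and Gm10561 (0.90), Pycr1 (0.89) and Slc35a2 (0.88) to Frzb. Between members the highest r were 0.86 for Sost and Dkk1 and 0.83 for Wif1 and Sfrp4, and the lowest was −0.48 for Sfrp4 and Sfrp5. Sost and Dkk1 each reached 10 CPM in only 1 of the 36 clusters, the osteocyte-like one, so their r depends mainly on that cluster.

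The other genes of the pathway were taken from a list of 69, of which 68 had a UMI and 48 had at least 100. Of the 69, 34 had at least 10 CPM in their highest class and at least 4-fold over the other cells. This pattern was found in 24.2% of the 13748 genes with at least 100 UMIs. The 34 include genes under that minimum, such as Wnt2 with 24 UMIs, so these shares are not on like terms. In all, 25 genes of the list reached 50 CPM in a skeletal class. Of the co-receptors on which sclerostin and the Dickkopf proteins act, Lrp5 was at 48.6 CPM in endothelial-like cells and, in the skeleton, highest in mature osteoblast-like cells (39.2 CPM, 33.9 to 45.1), and Lrp6 was highest in fibroblast-like cells (84.4 CPM). Lrp4, which holds sclerostin at the cell surface, was at 17.7 CPM (7.11 to 36.4) in osteocyte-like cells, and the immature osteoblast-like class, at 16.8 CPM, did not differ from these beyond counting error. Kremen1, a Dickkopf receptor, was highest in fibroblast-like cells (66.1 CPM), and Kremen2 had 17 UMIs in all.

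Among ligands, Wnt4 was highest in pre-hypertrophic chondrocyte-like cells (376 CPM), and Wnt5a (68.8 CPM) and Wnt16 (59.8 CPM) in fibroblast-like cells. Wnt5b was at 97.6 CPM (90.5 to 105) in hypertrophic and 96.4 CPM in pre-hypertrophic chondrocyte-like cells, an order that was not resolved. Of the Frizzled receptors, Fzd1 (76.3 CPM), Fzd2 (81.3 CPM) and Fzd8 (54.5 CPM) were highest in fibroblast-like cells and Fzd5 (53.0 CPM) in stromal progenitor-like cells. Fzd1 was at 72.5 CPM in stromal progenitor-like cells, so its order was not resolved. Ryk, another Wnt receptor, was at 349 CPM in osteocyte-like cells. Rspo3, a secreted agonist, was highest in stromal progenitor-like cells (267 CPM), as was Porcn (52.6 CPM), which acylates Wnts. Tcf7l1 was at 55.7 CPM there and 54.1 CPM in smooth muscle or pericyte-like cells. Tnfrsf19 was at 79.9 CPM there and 75.9 CPM in immature osteoblast-like cells, and neither order was resolved. The Rspo3 receptors Lgr4 (121 CPM) and Lgr6 (50.5 CPM) were highest in osteocyte-like cells. Tcf7l2 (172 CPM) and the target gene Ccn4 (599 CPM, listed as Wisp1) were highest there too. Wls, which carries Wnts to the surface, was highest in immature osteoblast-like cells (384 CPM). By class, Tcf7 was highest in mature osteoblast-like (59.7 CPM) and Lef1 in resting chondrocyte-like cells (79.7 CPM). Single clusters of the leukocyte-like class were higher, at 98.9 CPM for Tcf7 and 249 CPM for Lef1. Ctnnb1, the gene of beta-catenin, was at 633 CPM in immature osteoblast-like cells and highest in endothelial-like cells (882 CPM). Of the other antagonists in the list, Igfbp4 was highest in stromal progenitor-like cells (3642 CPM) and Trabd2b, which cleaves Wnts, in resting chondrocyte-like cells (69.4 CPM).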

How the data were processed

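Single-cell RNA-seq (10x Genomics) was performed by the authors on dissociated tibiae, and all values come from the gene matrix of the 1 library. UMI counts were deposited by the authors without normalization, made per the labels with Cell Ranger 3.1.0 on mm10, and Seurat 3 is also named in the submitters' processing notes. WPRE counts came from a separate deposited count matrix of exogenous sequences, joined by barcode. For the counts, the sources used here name no annotation release. Gene coordinates are from GENCODE M21 of GRCm38, and promoters from RefSeq.

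The matrix holds 14181 barcodes with 158281984 UMIs, 500 to 85279 per barcode. Cells with at least 1600 genes (the limit of the study's methods), at most 10% mitochondrial and at most 50% ribosomal protein UMIs were kept. With Python 3.11.15, scanpy 1.11.5 and numpy 2.4.6, counts were scaled to 10000 and log-transformed. Then 2000 variable genes, 30 components and 20 neighbours were used for Leiden clustering at resolution 1, and skeletal cells were clustered again at 0.6. The members, the other genes of the Wnt list, Pth1r and the Mmp genes were left out of the variable genes. Clusters were named from 28 marker lists, by a rule set after the clusters had been seen, and a cluster with over 25% called doublets was left as mixed. Scrublet marked 588 of 14181 barcodes (4.15%), which were kept. Rebuilt names may differ from those of the study.

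Levels are CPM of summed counts with exact Poisson intervals. Shares carry exact Clopper-Pearson intervals, ratios conditional binomial ones. Shares of cells were taken after thinning to 5000 UMIs, which left out 360 shallower cells. A count of 0 allows 3 counts. Folds used 1 CPM added. With 1 library there was no test, and the scripts were tested on simulated data. The named genes are all members, the 3 genes most like each member with at least 100 UMIs, 5 co-receptors and partners, and list genes with at least 50 CPM in a skeletal class. One gene that this rule names is not reported here. The members, lists and rules were chosen with earlier results of these data known.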

Additional observations from a re-analysis of the deposited data

How the results depend on the processing

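No paired analysis was possible because the result comes from 1 library and from no test. Its sequencing entries could not be left out in turn, since the matrix pools them. The share of member UMIs in skeletal classes was 84.5% with at least 2000 genes per cell. It was 82.4% and 84.5% with at most 5% and 20% mitochondrial UMIs and 92.0% without called doublets. It was 85.0% with more variable genes, 84.7% and 86.1% at resolutions 0.6 and 1.5 and 82.6% with finer sub-clustering. With the members and other Wnt genes allowed among the variable genes it was 84.9%, and with another random seed 83.9%. As a mean over cells it was 87.0%, and with the red blood cell-like level subtracted 84.5%. Of 10 members, 5 kept their highest class with at least 2000 genes and 6 each with at most 5% mitochondrial UMIs and at resolutions 0.6 and 1.5. In 6 of 10 reclusterings no osteocyte-like cluster separated, and Sost and Dkk1 were then highest in mature osteoblast-like cells (10.3 to 12.6 and 7.86 to 15.1 CPM), except that with at most 5% mitochondrial UMIs Sost was highest in endothelial-like cells (0.920 CPM). Frzb was then highest in hypertrophic or, with the Wnt genes allowed, resting chondrocyte-like cells. Wif1 was highest in stromal progenitor-like cells with at least 2000 genes (817 CPM). Sfrp4 was highest in immature osteoblast-like cells with at least 2000 genes and at both mitochondrial limits, and in osteoblast-like cells at resolution 0.6. Sfrp5 was highest in other chondrocyte-like cells without doublets and at resolution 1.5. The members whose level stayed within its counting interval numbered 3 with at least 2000 genes and 0 and 6 with at most 5% and 20% mitochondrial UMIs. They numbered 5 without doublets, 1 with more variable genes and 5 at each other resolution. With the Wnt genes allowed they numbered 4, with another seed 5 and as a mean over cells 6. For HC-derived against other cells, 1 member passed 2-fold with at most 5% mitochondrial UMIs, where fewer cells left a member under 100 UMIs (log2 ratios −2.46 for Dkk2 and −1.67 for Dkk3), and 0 with HC-derived set at 1 WPRE UMI. The other causes were not tested. In the class reported as each gene's highest, levels ranged over the alternatives that held this class, and over the marker groups for osteocyte-like cells, from 651 to 1036 CPM for Wif1, 121 to 315 for Sfrp5, 174 to 317 for Dkk3, 99.1 to 312 for Sfrp1, 99.7 to 222 for Sfrp2, 113 to 189 for Sfrp4, 107 to 259 for Sost and 73.2 to 185 for Dkk1. The ranges were 89.5 to 137 CPM for Frzb and 56.1 to 82.9 CPM for Dkk2. The levels of Sost rest on 82 UMIs in all, and the part of depth in them was not tested.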
